A study of Mus musculus with 14 samples.

Results

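Complement genes were followed across 3 classes of cells from the adult mouse dentate gyrus that differed in signal for reactive oxygen species (ROS). The genes were the C1q chains C1qa, C1qb and C1qc, the components C3 and C4b, the receptors C3ar1 and C5ar1, and the inhibitor Serping1. They were chosen by name as a pathway group, with earlier results of these data known, and all 8 were found by Ensembl identifier among the 15119 genes of the deposited table. The cells came from untreated B6.Cg-Tg(Nes-EGFP)1Yamm mice, which carry green fluorescent protein (GFP) under regulatory elements of Nestin, an intermediate filament gene of neural precursors. The digested tissue was sorted on GFP and on the fluorescence of dihydroethidium, which oxidation turns on. All libraries were GFP-positive and shared the strain, the transgene, the tissue and the standard housing. The classes were ROS+ (5 libraries), ROS++ (5 libraries) and ROS+++ (4 libraries), in rising order of dye signal. The labels name no animal, batch or pooling, so that p-values reflect the spread between libraries only, and this may be technical.

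Complement is a cascade of plasma and tissue proteins that tags particles, cells and synapses for uptake and draws in immune cells. In the classical pathway, C1q binds a target and switches on the proteases C1r and C1s, which cleave C4 and C2. The resulting enzyme cleaves C3, and the released fragments C3a and C5a act on the receptors encoded by C3ar1 and C5ar1, while the C1 inhibitor encoded by Serping1 blocks C1r and C1s. In brain tissue, microglia and the macrophages of vessels and meninges are known as the chief sources of C1q and of both receptors, whereas C4 and the C1 inhibitor are also made by glial, vascular and connective tissue cells.

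The libraries held 12704227 to 25313902 reads over the listed genes, and 3 reads, the most that a count of 0 allows at 95% confidence, corresponded to 0.119 to 0.236 CPM (reads per 1000000 reads of the library). Markers fixed for other cell types moved with the classes. The 10 neural precursor markers summed to 1941 to 2829, 397 to 899 and 224 to 390 CPM in ROS+, ROS++ and ROS+++ libraries, against 201 to 693, 8307 to 24048 and 54300.2 to 62755 CPM for 10 pericyte markers. Precursor markers thus exceeded pericyte markers in every ROS+ library, and the reverse held in every ROS++ and ROS+++ library, whose marker levels went against the precursor label. For 12 genes shared by microglia and macrophages, called the macrophage reference list below, the sums were 3.16 to 14.8, 528 to 1117 and 473 to 1408 CPM in the same order. ROS+++ replicate 1 stood apart from its class. Its 10 border macrophage markers (Mrc1, Cd163, Lyve1 and others of macrophages at vessels and meninges) summed to 14.1 CPM, while the other 3 ROS+++ libraries reached up to 857 CPM. Many class differences, spans and marker list correlations that rest on replicate 1 are also given without it. The nearest genes by correlation are given only with it. Of the differences relative to the macrophage reference list, only that of C5ar1 is given without it.

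Of the 8 genes, 6 were higher in ROS++ than in ROS+, the same 6 were higher in ROS+++ than in ROS+, and Serping1 was the only gene called between ROS+++ and ROS++. The 6 were C1qa, C1qb, C1qc, C3ar1, C4b and C5ar1, and the ROS+ libraries were shared by those comparisons. Differences are given as log2(CPM + 1), which understates the change of genes near 0, and genes with a limma p under 0.05 after Benjamini-Hochberg adjustment over all 15102 genes tested are said to be called. For ROS++ against ROS+, 16.4% of all genes tested were called higher and 13.2% lower, beside 6 of the 8 complement genes higher and none lower. For ROS+++ against ROS+, 19.2% of all genes were called higher and 40.0% lower, beside 6 of 8 higher and none lower. For ROS+++ against ROS++, 9.89% of all genes were called higher and 29.2% lower, beside 1 of 8 higher and none lower. The median difference over the 8 genes was 5.34, 4.46 and -0.85 in these comparisons, and over all genes tested it was -0.03, -0.44 and -0.34. All 8 genes passed the filter on low values, and C1qa, C1qc, C3ar1 and C5ar1 passed it only through ROS++ and ROS+++, since 1 ROS+ library at most (for C3ar1) reached 1 CPM. The C1q chains and both receptors, 5 of the 8 genes, had every ROS++ library above every ROS+ library, a pattern that 12.1% of all genes showed, and every ROS+++ library above every ROS+ library, which 16.8% of all genes showed. Without ROS+++ replicate 1, the 6 genes were again called against ROS+. In sorted bulk samples, fewer cells of a type and less RNA per cell cannot be told apart, and this holds for each difference between classes below.

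**Figure D1:**
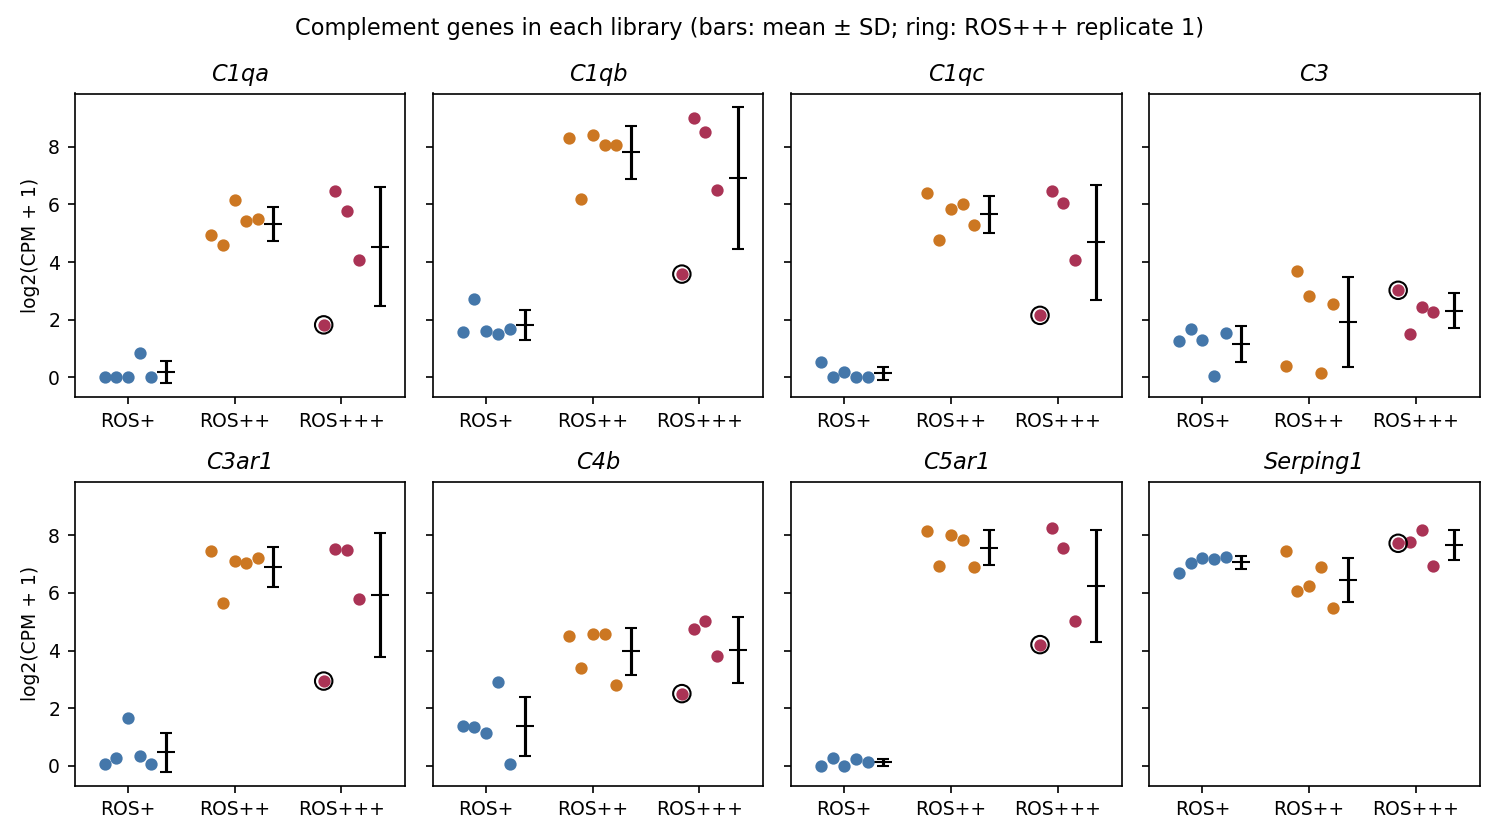
Level of each complement gene, as log2(CPM + 1), in each of the 14 libraries, by ROS class. Points are libraries in replicate order, bars to their right are the mean ± SD of the class, and rings mark ROS+++ replicate 1, which was the lowest of its class for 6 of the 8 genes.

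The C1q chains form the recognition unit of the classical pathway. C1qb stood at 1.98, 5.57, 2.05, 1.83 and 2.16 CPM in ROS+ replicates 1 to 5 and at 319, 72.4, 337, 264 and 268 CPM in ROS++ replicates 1 to 5. In ROS+++ replicates 1 to 4 it stood at 10.98, 518, 365 and 90.1 CPM. Every ROS++ and ROS+++ library was thus above every ROS+ library, replicate 1 was far below the rest of ROS+++, and replicates 2 and 3 of ROS+++ were above all ROS++ libraries. The means were 2.72 ± 1.60 (SD, n = 5), 252 ± 105 (n = 5) and 246 ± 236 CPM (n = 4) for ROS+, ROS++ and ROS+++. By limma, C1qb was 5.997 ± 0.849 (SE) log2 units higher in ROS++ than in ROS+ (adjusted p = 0.000157) and 5.10 ± 0.90 higher in ROS+++ than in ROS+ (adjusted p = 0.000318). Neither call held in limma-voom on the recovered reads, where the differences of 6.53 and 5.599 had adjusted p of 0.135 and 0.147.

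C1qa, which encodes the A chain, was at 0 in ROS+ replicates 1, 2, 3 and 5 and at 0.810 CPM (19 reads) in replicate 4. The ROS++ libraries had 29.7, 23.3, 70.6, 42.3 and 44.6 CPM and the ROS+++ libraries 2.53, 87.6, 53.5 and 15.98 CPM, in replicate order. The ROS+++ libraries spanned a wider range than the ROS++ libraries on both sides, and neither overlapped ROS+. C1qa was 5.16 ± 0.63 log2 units higher in ROS++ than in ROS+ (limma, adjusted p = 5.88e-06) and 4.36 ± 0.67 higher in ROS+++ than in ROS+ (adjusted p = 2.23e-05).

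C1qc, which encodes the C chain, was at 0.435 CPM (11 reads) and 0.134 CPM (3 reads) in ROS+ replicates 1 and 3 and at 0 in the other ROS+ libraries. The ROS++ libraries had 83.96, 26.2, 56.1, 63.5 and 38.1 CPM and the ROS+++ libraries 3.44, 87.7, 66.0 and 15.7 CPM. The same ROS+++ libraries, replicates 2 and 3, were high for all of the C1q chains. C1qc was 5.52 ± 0.60 log2 units higher in ROS++ than in ROS+ (limma, adjusted p = 1.75e-06) and 4.55 ± 0.64 higher in ROS+++ than in ROS+ (adjusted p = 9.50e-06).

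The C1q chain genes lie side by side on the minus strand of chromosome 4, within 18675 bases of build GRCm38 (mm10) from 136880129 to 136898803. In the GENCODE M21 annotation, C1qb (ENSMUSG00000036905) spans chr4:136880129-136886187, C1qc (ENSMUSG00000036896) chr4:136889804-136893065 and C1qa (ENSMUSG00000036887) chr4:136895917-136898803. Promoter sequence of RefSeq on GRCm38.p6 matched 5 of the 8 genes, namely C1qb, C1qc, C3, C3ar1 and C5ar1. Those of C1qb, C1qc and C3ar1, genes that were high in the same libraries, are printed 5′ to 3′ on the minus strand, from 250 bases before the RefSeq start and without bases inside the annotated gene. Capitals mark matches to a searched motif.
C1qb, chr4:136886201-136886450: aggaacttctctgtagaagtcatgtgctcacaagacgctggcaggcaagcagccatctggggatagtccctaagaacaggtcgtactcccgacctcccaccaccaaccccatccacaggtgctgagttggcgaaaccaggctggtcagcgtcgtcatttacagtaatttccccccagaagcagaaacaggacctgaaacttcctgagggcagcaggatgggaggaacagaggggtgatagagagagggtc
C1qc, chr4:136893066-136893164: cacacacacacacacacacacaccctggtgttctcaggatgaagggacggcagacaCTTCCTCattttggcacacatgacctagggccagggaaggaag
C3ar1, chr6:122856162-122856407: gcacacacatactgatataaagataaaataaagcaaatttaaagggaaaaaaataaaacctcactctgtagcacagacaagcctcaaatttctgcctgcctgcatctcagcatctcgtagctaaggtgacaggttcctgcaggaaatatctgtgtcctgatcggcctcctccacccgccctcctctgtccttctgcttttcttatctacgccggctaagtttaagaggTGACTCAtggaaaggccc
Motifs of 4 factor families active in macrophages were searched on both strands of the 250 bases before each start. GAGGAAG, an ETS factor core with a purine lead, occurred in 10.6% of all 32851 promoters. TGANTCA (AP-1) occurred in 6.75%, TTCNNNGAA (STAT) in 7.02% and a motif of the interferon-stimulated response element in 2.98%. Other forms of the ETS core were not searched and are not marked. Among the 5 promoters, GAGGAAG was present on the opposite strand in C1qc, 194 bases before the RefSeq start, and TGACTCA in C3ar1, 22 bases before the RefSeq start. The RefSeq start of C1qc lies inside the annotated gene, so that only 99 of its 250 bases are printed. These matches are letters in a window and no measure of binding, and the lack of a match says nothing of the factor.

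Compared per length of exon, C1qb was the most abundant C1q chain gene in every library. In ROS++ the levels were 232 ± 96.8 CPM per kilobase for C1qb, 40.5 ± 17.5 for C1qa and 27.7 ± 11.6 for C1qc (SD, n = 5), and the last 2 did not differ beyond their spread. The read density of C1qb was 2.96 to 10.3 times that of C1qa in ROS++ and 4.15 to 6.53 times in ROS+++. C1qb made up 64.9% to 80.3% of the C1q read density in ROS++ and 70.5% to 79.7% in ROS+++, so that these shares overlapped while the C1qb level spanned 47.2-fold among the ROS+++ libraries (5.74-fold without replicate 1). In ROS+, C1qb had 43 to 116 reads in all 5 libraries, whereas C1qa had no read in 4 of them and C1qc none in 3. ROS+ replicate 2 had 116 C1qb reads without a read of C1qa or C1qc. The ROS+ shares rest on few reads, and the 95% Wilson interval of the C1qb share of C1q reads in ROS+ replicate 4 ran from 57.0% to 79.4%, which covers counting error only.

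**Figure D2:**
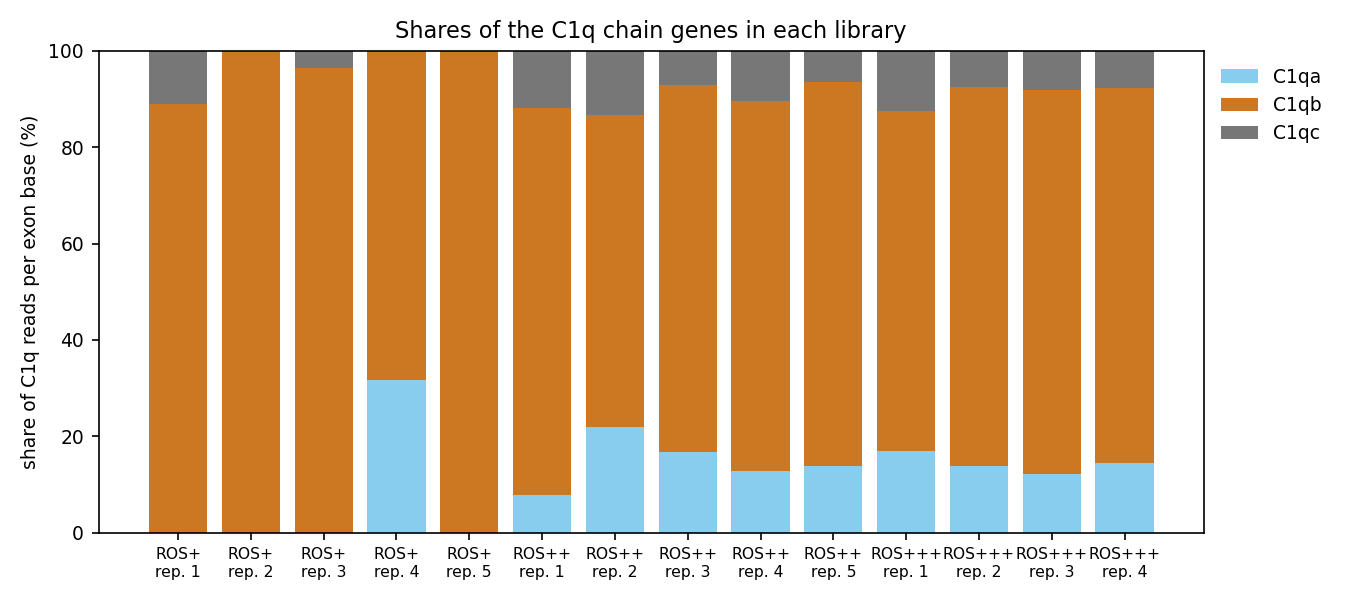
Share of each C1q chain gene in the C1q reads per exon base (%, stacked to 100), for each of the 14 libraries (rep., replicate). C1qb takes 64.9% to 80.3% in ROS++ and 70.5% to 79.7% in ROS+++ libraries, while C1qa is at 0 in 4 of the 5 ROS+ libraries.

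The receptors for the released fragments moved in the same direction as C1q. C5ar1, the C5a receptor of myeloid cells (ENSMUSG00000049130, chr7:16246743-16259540, minus strand), had 0 to 4 reads per ROS+ library, 0, 0.192, 0, 0.171 and 0.0938 CPM in replicate order. Its ROS++ values were 286, 122, 259, 229 and 118 CPM, and its ROS+++ values were 17.5, 302, 186 and 31.6 CPM. ROS+++ replicates 1 and 4 were below every ROS++ library, and replicate 2 was above them all. C5ar1 had the widest difference of the 8 genes, 7.45 ± 0.58 log2 units between ROS++ and ROS+ (limma, adjusted p = 6.04e-08) and 6.13 ± 0.62 between ROS+++ and ROS+ (adjusted p = 2.85e-07). In limma-voom these differences were 11.4 and 10.1 and were not called (adjusted p = 0.0598 and 0.0596).

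C3ar1, the C3a receptor (ENSMUSG00000040552, chr6:122847138-122856161, minus strand), stood at 0.0395, 0.192, 2.19, 0.256 and 0.0469 CPM in ROS+. It reached 174, 49.7, 136, 132 and 147 CPM in the ROS++ libraries and 6.68, 184, 178 and 53.9 CPM in those of ROS+++. ROS+ replicate 3 was the highest of its class but still below every library of the other classes. C3ar1 was 6.42 ± 0.70 log2 units higher in ROS++ than in ROS+ (limma, adjusted p = 3.90e-06) and 5.46 ± 0.74 higher in ROS+++ than in ROS+ (adjusted p = 1.17e-05). In limma-voom, C3ar1 was not called in either comparison, at 9.07 (adjusted p = 0.0837) and 8.05 (adjusted p = 0.0833).

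C4b, which encodes the component that C1s cleaves, was lower and less separated between classes. The ROS+ values were 1.62, 1.54, 1.20, 6.48 and 0.0469 CPM, the ROS++ values 21.8, 9.498, 22.9, 22.998 and 5.95 CPM, and the ROS+++ values 4.68, 25.9, 31.7 and 12.99 CPM. ROS+ replicate 4 overlapped the lowest library of either other class. C4b was 2.604 ± 0.552 log2 units higher in ROS++ than in ROS+ (limma, adjusted p = 0.00156) and 2.65 ± 0.59 higher in ROS+++ than in ROS+ (adjusted p = 0.000841). The gene (ENSMUSG00000073418, chr17:34728380-34743882, minus strand) has a near-identical neighbour, C4a, not analysed here, and how the counting shared reads between them is not given in the sources used here, so that its level is uncertain.

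C3, the component on which the pathways of complement converge (ENSMUSG00000024164, chr17:57203970-57228136, minus strand), was low in every class. Its ROS+ values were 1.38, 2.16, 1.43, 0.0426 and 1.88 CPM, followed by 0.314, 11.9, 6.10, 0.102 and 4.86 CPM in ROS++ replicates and 7.11, 1.86, 4.38 and 3.86 CPM in ROS+++ replicates. The classes overlapped, and within ROS++ the highest library was 116-fold above the lowest, which had 2 reads. C3 did not pass the test in any comparison. The differences by limma were 0.76 ± 0.59 (adjusted p = 0.365) for ROS++ and 1.16 ± 0.63 (adjusted p = 0.122) for ROS+++ against ROS+, with unadjusted 95% intervals of -0.48 to 2.01 and -0.17 to 2.48. The F-test over the 3 classes called 61.5% of all genes and 7 of the 8 complement genes, all but C3 (adjusted p = 0.244).

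Serping1, which encodes the C1 inhibitor (ENSMUSG00000023224, chr2:84765387-84775444, minus strand), had another pattern. The ROS+ libraries had 102, 130.5, 146, 144 and 151 CPM, the ROS++ libraries 175, 66.7, 74.7, 119 and 43.9 CPM, and the ROS+++ libraries 211, 217, 293 and 122 CPM. Replicates 1 to 3 of ROS+++ were above all other libraries, while replicate 4 lay among those of both other classes. The class means were 135 ± 19.7 CPM (SD, n = 5), 96.0 ± 52.1 CPM (n = 5) and 211 ± 69.7 CPM (n = 4). Serping1 was 1.22 ± 0.32 log2 units higher in ROS+++ than in ROS++ (limma, adjusted p = 0.00544), and without ROS+++ replicate 1 its ROS+++ mean was 211 ± 85.4 CPM (n = 3). Its differences from ROS+ did not pass, at -0.63 ± 0.30 in ROS++ (adjusted p = 0.123) and 0.59 ± 0.32 in ROS+++ (adjusted p = 0.118). The latter passed with median-of-ratios factors (1.03, adjusted p = 0.0156) and with upper-quartile factors (0.88, adjusted p = 0.0305) in place of library totals. Per length of exon it was the most abundant of the 8 genes in ROS+, at 57.9 ± 8.47 CPM per kilobase, where C1qb, the next, had 2.497 ± 1.469. In ROS++, Serping1 (41.3 ± 22.4) came after C1qb (232 ± 96.8) and C5ar1 (78.9 ± 30.5), and C1qa (40.5 ± 17.5) was within its spread. In ROS+++, C1qb (226 ± 217), Serping1 (90.6 ± 29.99) and C5ar1 (52.2 ± 52.7) did not differ beyond the spread of C1qb and C5ar1.

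**Figure D3:**
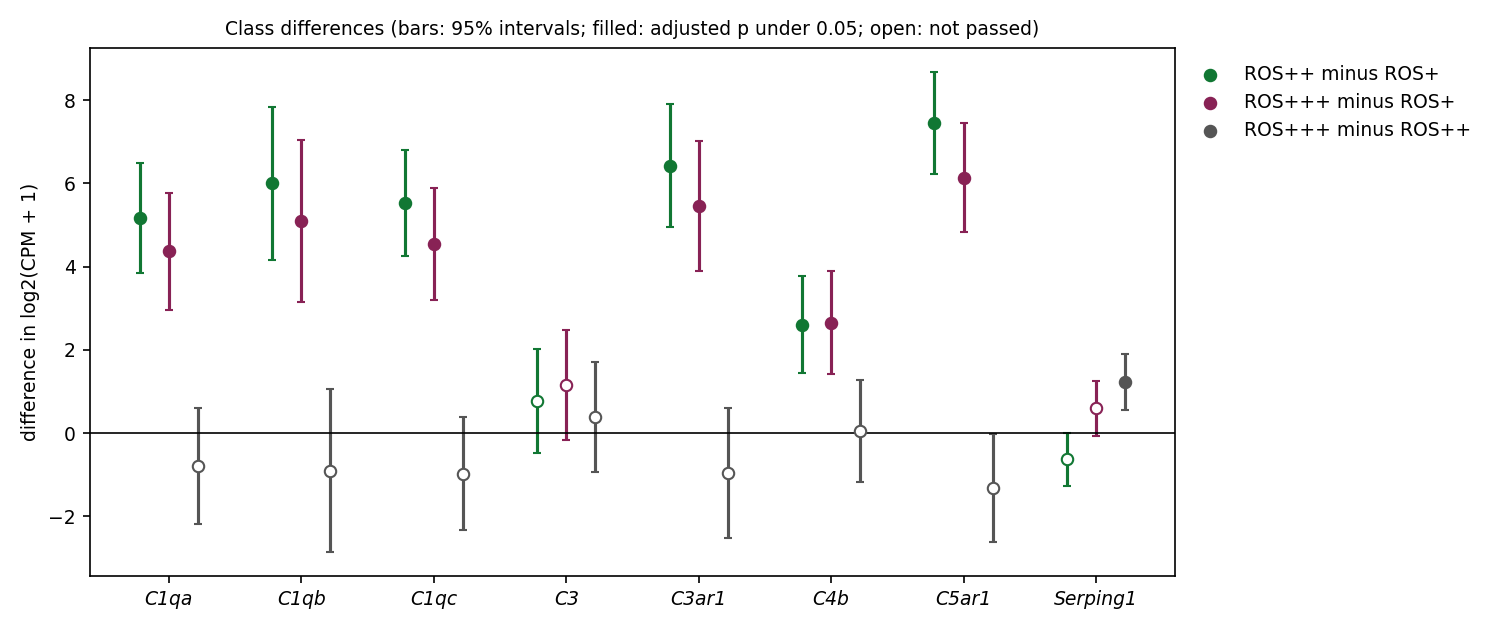
Differences between classes in log2(CPM + 1) for the 8 complement genes, with unadjusted 95% intervals from limma as bars. Filled points had an adjusted p under 0.05. C1q, receptor and C4b points of both comparisons with ROS+ are filled, and between ROS+++ and ROS++ only that of Serping1 is (1.22).

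Between ROS+++ and ROS++, the C1q and receptor genes did not pass the test, and the intervals were wide. The differences were -0.80 for C1qa, -0.90 for C1qb, -0.97 for C1qc, -0.96 for C3ar1 and -1.32 for C5ar1 (limma, adjusted p = 0.364, 0.457, 0.244, 0.324 and 0.102). The unadjusted 95% intervals ran from -2.85 to 1.05 for C1qb and from -2.62 to -0.01 for C5ar1. These values rested in part on replicate 1. Without it, the differences of C1qa, C1qb and C3ar1 turned to 0.11, 0.21 and 0.038, those of C1qc, C5ar1 and C4b moved to -0.13, -0.63 and 0.56, none called, and the ROS+++ means rose to 52.4 ± 35.8 CPM for C1qa, 324 ± 217 CPM for C1qb and 139 ± 73.5 CPM for C3ar1 (n = 3). C5ar1 was called lower without ROS+++ replicate 2 (-1.98, adjusted p = 0.00953) and without replicate 3 (-1.75, adjusted p = 0.0390). The highest and lowest ROS+++ libraries differed 47.2-fold for C1qb, 34.6-fold for C1qa, 27.5-fold for C3ar1, 25.5-fold for C1qc and 17.3-fold for C5ar1, against 2.42-fold to 4.65-fold within ROS++ for these genes. Without replicate 1 the ROS+++ spans were 5.74-fold, 5.49-fold, 3.41-fold, 5.57-fold and 9.54-fold in the same order.

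The levels within ROS+++ went along with those of border macrophage markers. In ROS+++ replicates 1 to 4, the border macrophage list summed to 14.1, 857, 739 and 167 CPM, the macrophage reference list to 796, 1408, 1355 and 473 CPM, and the microglia list, of which 9 of 10 genes were listed, to 211, 388, 469 and 308 CPM. Replicate 1 was below the other 3 libraries in 9 of the 10 border macrophage genes, in 4 of the 12 reference genes and in 5 of the 9 microglia genes. In that library the border markers Lyve1 (0.143 CPM), Pf4 (0.382 CPM) and Cd163 (0.430 CPM) were near 0. The reference genes went both ways there. Tyrobp (142 CPM), Fcer1g (150 CPM) and Ctss (192 CPM) were above replicate 4. The 4 below the other ROS+++ libraries were Csf1r (36.6 CPM), Trem2 (0.764 CPM), Irf8 (0.239 CPM) and Laptm5 (72.5 CPM). Of the 3 listed markers of monocytes and neutrophils, Plac8 was highest in replicate 1 (154 CPM against 31.2 to 57.7 CPM in the other ROS+++ libraries), whereas Ccr2 (9.74 against 22.6 CPM) and Ly6c2 (12.2 against 15.6 CPM) were highest in replicate 2. Per 100 CPM of the border macrophage list, C1qb stood at 49.4 to 78.0 in ROS+++, a 1.58-fold span, while per 100 CPM of the reference list and of the microglia list it spanned 26.7-fold and 25.7-fold. Most of that contrast came from replicate 1, since without it the spans were 1.22-fold, 1.93-fold and 4.57-fold. In ROS++ the ratio of C1qb to the border list was 16.9 to 46.1, below every ROS+++ library. In ROS+++ against the border list, C1qa spanned 2.48-fold, C1qc 2.73-fold, C3ar1 2.21-fold and C5ar1 6.55-fold, all wider than C1qb. Without replicate 1 these spans were 1.41-fold, 1.15-fold, 1.503-fold and 1.86-fold. Against the reference list, again without it, they were 1.84-fold, 1.87-fold, 1.155-fold and 3.203-fold, so that C3ar1 followed the reference list more closely. The part of cell composition in these differences was not tested.

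**Figure D4:**
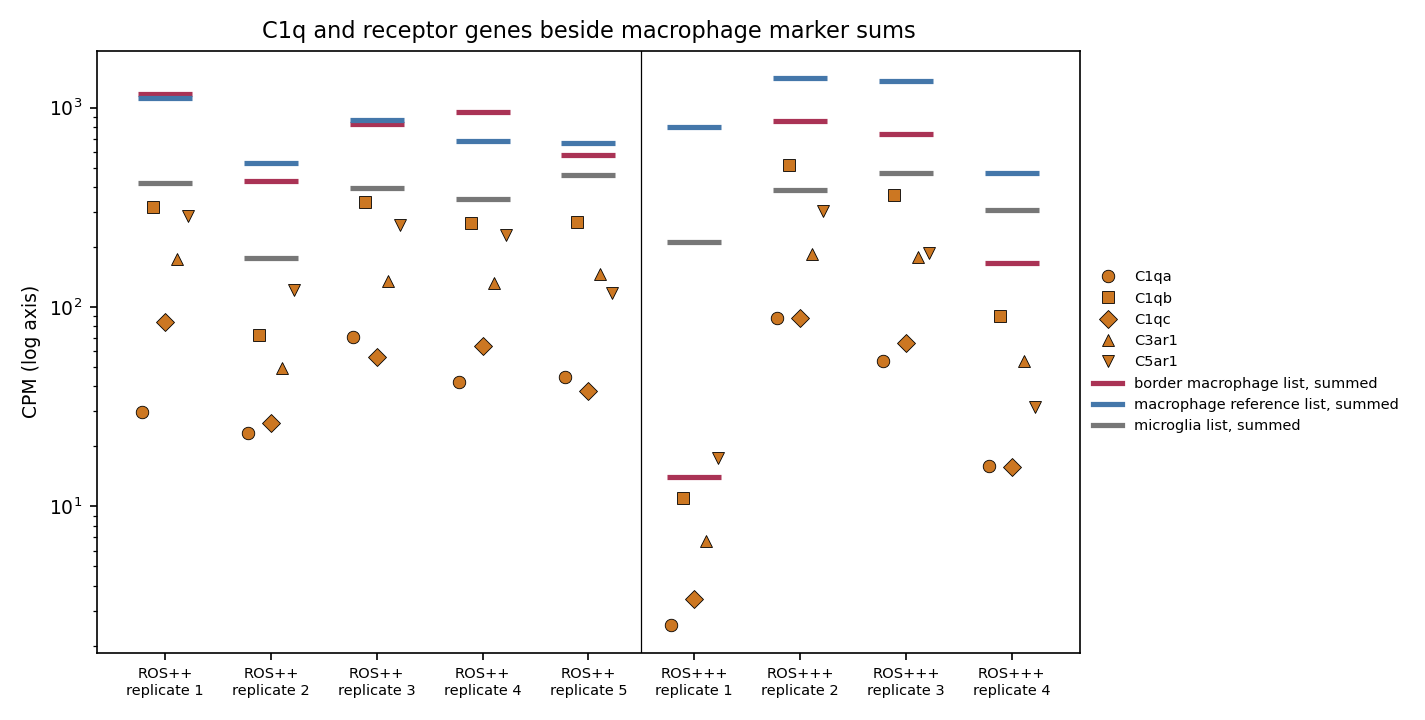
CPM on a log axis of C1qa, C1qb, C1qc, C3ar1 and C5ar1 (symbols) and summed CPM of the border macrophage, macrophage reference and microglia lists (horizontal bars) in the ROS++ and ROS+++ libraries. In ROS+++ replicate 1 the border macrophage sum falls to 14.1 CPM beside low complement levels, while the macrophage reference sum is 796 CPM.

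Each gene was also set against the mean log2 level of the macrophage reference list in the same library, for ROS++ and ROS+++ only. Relative to that list, 1 of the 8 genes was called lower in ROS+++ and none higher, where 16.1% of all genes were called lower and 3.71% higher. That gene was C5ar1, at -1.53 ± 0.45 (limma, adjusted p = 0.00616), and an exact two-sided permutation test over the 9 libraries gave an unadjusted p of 0.0476, the lowest of 8 such tests. The limma p-values of this fit are too small, since the noise of the reference list is common to all genes. The fit also took the spread of many genes as known (the median prior degrees of freedom were infinite). C5ar1 was not called without ROS+++ replicate 1 (-1.05, adjusted p = 0.0799), nor against the microglia list (-1.25, adjusted p = 0.114), and against the border macrophage list its sign turned (0.53, adjusted p = 0.745). For C1qa, C1qb, C1qc and C3ar1 the relative differences were -1.01, -1.11, -1.19 and -1.17 (adjusted p = 0.160, 0.0605, 0.0757 and 0.0531) and the exact permutation p were 0.175, 0.333, 0.111 and 0.127.

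Within classes, the C1q and receptor genes varied together. After subtraction of the class means, the Pearson correlations over the 14 libraries were 0.90 between C1qb and C1qa, 0.93 between C1qb and C1qc, 0.91 between C1qb and C3ar1 and 0.95 between C1qc and C5ar1. Those of C1qb with C4b (0.60), Serping1 (0.23) and C3 (-0.38) were lower. Without ROS+++ replicate 1, the first 4 correlations were 0.72, 0.81, 0.72 and 0.93, and those of C1qb with C4b, Serping1 and C3 were 0.35, 0.44 and -0.35. Over all 14 libraries, the nearest other genes of C1qb were the acid-sensing receptor Gpr65 (0.96), the border macrophage gene Ms4a7 (0.95) and Cbr2 (0.94), and those of C5ar1 were F13a1 (0.98), the cytokine Tnf (0.96) and Mrc1 (0.96). For C1qa they were Ms4a7, Hk3 and Gpr65, for C1qc Ccl7, Cbr2 and Ms4a7, and for C3ar1 Ms4a7, the identifier ENSMUSG00000029333 and Cd33. C4b was nearest to Pink1, Timp2 and Id3, C3 to Nxpe3, Nfx1 and Gm8773, and Serping1 to Rasd1, Rgs2 and Gm12002. Before that subtraction the nearest genes were Cd14, Stab1 and Fcrls (which is on the microglia list used here) for C1qb, Maf, Mrc1 and Gpr65 for C1qa, Cd14, Fcrls and Mrc1 for C1qc, and Fcrls, Gpr65 and Cd14 for C3ar1. C5ar1 was then nearest to Ms4a4a, Maf and Mrc1, C4b to the smooth muscle genes Tagln and Myh11 with Bst2 between them, Serping1 to Rasd1, Hspa12a and Sesn1, and C3 to Tmem39a, Exosc7 and Apbb1ip. The points share libraries and class means, and the values are descriptions. Nearest genes were not sought without ROS+++ replicate 1.

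With the 10 border macrophage markers the median of these within-class correlations was 0.94 for C1qc, 0.91 for C1qb, 0.89 for C1qa, 0.89 for C5ar1 and 0.87 for C3ar1, with the macrophage reference list it was 0.37 to 0.61 and with the microglia markers 0.21 to 0.41 for these genes. Single microglia markers reached 0.86 to 0.95. Without ROS+++ replicate 1, the medians with the border markers were lower, 0.86 for C1qc, 0.84 for C5ar1, 0.74 for C1qb, 0.70 for C1qa and 0.63 for C3ar1, beside 0.68, 0.74, 0.64, 0.51 and 0.40 with the reference list and 0.14 to 0.40 with the microglia markers. C4b had a median of 0.70 with the border markers and 0.61 with 8 oligodendrocyte markers, and without that library the order turned (0.59 and 0.64). The oligodendrocyte markers themselves summed to 1976 to 10368 CPM in ROS++ and 487 to 653 CPM in ROS+++. For Serping1 the median was 0.46 with the oligodendrocyte markers, 0.39 with the reference list and 0.32 with the border markers. Without that library these medians were 0.46, 0.42 and 0.64. C3 had negative medians with the border macrophage (-0.44) and oligodendrocyte (-0.58) markers.

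**Figure D5:**
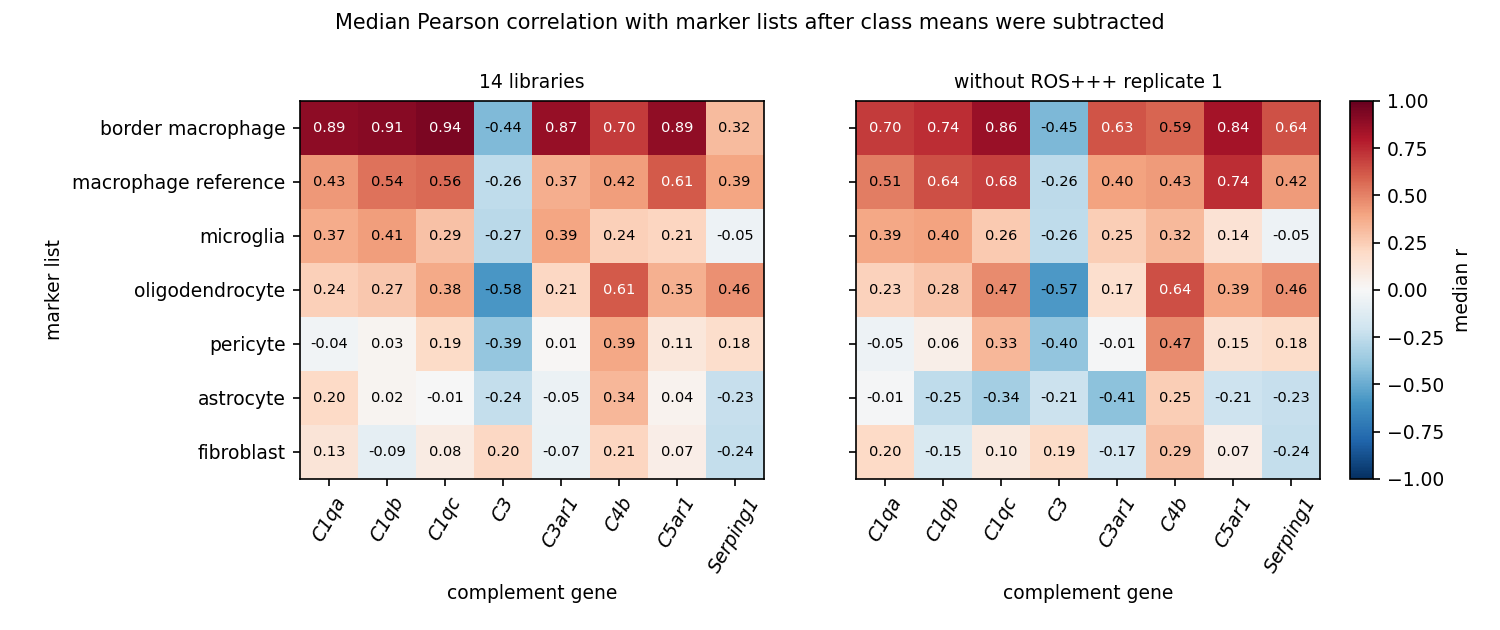
Median Pearson correlation of each complement gene (columns) with the genes of each marker list (rows) after class means were subtracted, over 14 libraries (left) and without ROS+++ replicate 1 (right). The C1q and receptor genes have their highest medians with the border macrophage list, 0.87 to 0.94 over 14 libraries and 0.63 to 0.86 without that library.

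The rest of the complement system was read from a list of 56 genes by role, of which 48 were other than the 8 genes above and 26 of those were listed and tested. Against ROS+, 12 of the 26 were called higher and none lower in ROS++, and 13 higher and 6 lower in ROS+++, where the shares over all genes were 16.4% and 13.2% for ROS++ and 19.2% and 40.0% for ROS+++. Between ROS+++ and ROS++, 4 were called higher and 6 lower, near the 9.89% and 29.2% of all genes. Their median difference was 0.63, 0.90 and -0.44 in the 3 comparisons, against -0.03, -0.44 and -0.34 over all genes.

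Among the classical pathway proteases, C1s1, which encodes C1s, rose in each comparison, unlike the C1q genes. Its class means were 1.89 ± 2.76, 26.8 ± 20.6 and 87.6 ± 2.74 CPM, and the last step was 2.15 ± 0.65 log2 units (limma, adjusted p = 0.0138). C1ra, which encodes C1r, was called higher in ROS+++ than in ROS+ (2.37 ± 0.58, adjusted p = 0.00212), and C2, the partner of C4, was called higher in ROS++ than in ROS+ (1.73 ± 0.48, adjusted p = 0.0110). C1s1 and C1ra have close paralogs, C1s2 and C1rb, which are not analysed here, so that their levels are uncertain in the same way as that of C4b.

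In the lectin pathway, 2 of 4 genes tested were called higher in ROS++ than in ROS+, where 16.4% of all genes were. Colec12, a scavenger receptor with a collectin domain, went from 0.461 ± 0.508 CPM in ROS+ to 69.7 ± 28.1 and 263 ± 42.6 CPM in ROS++ and ROS+++. Fcna, which encodes a ficolin of macrophages, went from 0.0546 ± 0.0830 to 13.02 ± 5.18 and 15.6 ± 18.2 CPM. Masp1, a lectin pathway protease gene, went the other way, from 28.6 ± 5.39 and 24.04 ± 15.7 CPM in ROS+ and ROS++ to 0.445 ± 0.756 CPM in ROS+++, a fall of 4.04 ± 0.41 log2 units from ROS++ (limma, adjusted p = 9.33e-07). Cfp, which encodes properdin, the stabiliser of the alternative pathway, was called higher in ROS++ than in ROS+ (1.496 ± 0.426, adjusted p = 0.0127). Neither of 2 terminal component genes tested, Hc (which encodes C5) and C8g, was called in any comparison.

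Of 5 other receptor genes tested, 3 were called higher in ROS++ than in ROS+ and 4 in ROS+++ than in ROS+, beside 16.4% and 19.2% of all genes. Itgam and Itgb2, which together encode complement receptor CR3, rose by 3.32 ± 0.47 and 2.72 ± 0.50 log2 units in ROS++ over ROS+ (limma, adjusted p = 3.49e-05 and 0.000475). Itgb2 was also called higher in ROS+++ than in ROS++ (1.54 ± 0.53, adjusted p = 0.0296), at 42.3 ± 28.2 against 13.6 ± 8.26 CPM. C5ar2, the other C5a receptor, rose by 2.84 ± 0.40 in ROS++ over ROS+ (adjusted p = 3.01e-05), at 7.36 ± 2.84 CPM in ROS++ against 203 ± 78.4 CPM for C5ar1. Of 11 other regulator genes, 4 were called higher in ROS++ than in ROS+ and none lower, and 5 were called higher and 5 lower in ROS+++ than in ROS+. Over all genes, 16.4% and 13.2% were called higher and lower in ROS++, and 19.2% and 40.0% in ROS+++, so that the share of regulators called lower in ROS+++ was near that of all genes. Vtn, which encodes vitronectin, an inhibitor of the terminal complex and also a pericyte marker, had class means of 50.5 ± 75.1, 5569.8 ± 2657 and 22247 ± 2489 CPM. Clu, which encodes clusterin, another inhibitor of the terminal complex, went from 697 ± 160 to 2303 ± 313 and 1992 ± 772 CPM. Susd4, an inhibitor of the C3 convertase found in neural tissue, stood at 75.7 ± 17.1, 69.7 ± 20.02 and 5.82 ± 7.31 CPM and fell by 4.16 ± 0.60 log2 units from ROS++ to ROS+++ (limma, adjusted p = 5.89e-05).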

How the data were processed

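RNA of 14 sorted-cell libraries was measured after poly-dT priming and template switching, with no molecular identifiers or strand record described. The authors deposited 1 table of log2 values, and per the submitters' processing notes STAR, edgeR and build mm10 were used, while no source used here gives versions, counting tool or annotation. All deposited values were whole multiples of 1 read per library within 0.001 reads once the added prior (1 read at mean library size) was removed. Reads were scaled to CPM by library totals over the listed genes. Depth was 12704227 to 25313902 reads. The 8 genes, the marker lists and the pathway list were chosen with earlier results of these data known. Genes with at least 1 CPM in at least 4 libraries (15102, with 17 removed) were fitted with limma 3.58.1 (trend, robust, statmod 1.5.0, R 4.3.3) on log2(CPM + 1), with a mean for each class, 11 residual degrees of freedom and Benjamini-Hochberg adjustment over all genes. The fit was also run on simulated reads with the same dispersion (spread between libraries) for all genes and classes. That setting differs from genes near 0 in ROS+ and widely spread in ROS+++, so it does not check the fit for them. Because the unit is log2, no count model was fitted except limma-voom on the recovered reads, as an alternative.

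Named genes were the 8 members in full, up to 3 other genes for each role with the lowest F-test p among those called, and the 3 genes of highest Pearson correlation with each member. Hc, C8g and markers beside a result were named after their values were seen. Replicates were numbered in sample order. Chi-square per degree of freedom was 32.8 to 157 between the 26 replicate pairs, so that none was a repeated library. Alternatives were a pseudocount of 0.5 CPM, the log2 values as deposited, no filter, median-of-ratios and upper-quartile factors, limma-voom, fits of the compared classes alone, library-number sets as block, other reference lists and leaving out each library. The border macrophage list as reference, the exact permutation tests and the spans and correlations without ROS+++ replicate 1 were chosen after seeing the data. Coordinates are those of GENCODE M21 (GRCm38) and promoters those of RefSeq.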

Additional observations from a re-analysis of the deposited data

Results flagged for a closer look

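In groups of 4 or 5 libraries, a library was listed when its gap to the nearest other library took up most of the range of the group on the log2(CPM + 1) scale. This held in 6 of the 24 groups of 1 gene in 1 class. Chance gives about 1 in 20 groups only for independent, normally distributed values. The ROS+ groups listed held few reads, and C1qb and C3ar1 varied together, so the count cannot show an excess over chance. ROS+ replicate 4 was the highest of its class for C1qa, with 0.810 CPM (19 reads) where the other ROS+ libraries had 0, and the lowest of its class for C3, with 0.0426 CPM (1 read). ROS+ replicate 2 was the highest for C1qb, with 5.57 CPM (116 reads), and ROS+ replicate 3 the highest for C3ar1, with 2.19 CPM (49 reads). ROS++ replicate 2 was the lowest of its class for C1qb, with 72.4 CPM (1349 reads), and for C3ar1, with 49.7 CPM (927 reads). The macrophage reference list summed to 528 CPM in that library, the lowest of ROS++, and the border macrophage list to 429 CPM, also the lowest. Whether the macrophage content of that library accounts for these levels was not tested. In the sample titles, its library number comes directly before that of ROS+++ replicate 1, the lowest of its class for C1qb and C3ar1. What the numbers mark is not stated, and whether these libraries share a source was not tested.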

How the results depend on the processing

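C1qa, C1qc and C4b kept their direction and their call against ROS+, in ROS++ and in ROS+++, under all 22 alternatives run for each, and so did Serping1 between ROS+++ and ROS++ (0.99 to 1.64). Limma-voom left 3 of the 8 genes called between ROS++ and ROS+, and the cause was not tested. Leaving out each library gave 6 to 7 called genes in either comparison with ROS+ and 1 to 2 between ROS+++ and ROS++. Serping1 also passed against ROS+ in limma-voom (0.65, adjusted p = 0.0473), with only ROS+ and ROS+++ fitted (0.59, adjusted p = 0.0270) and without ROS+++ replicate 4 (0.83, adjusted p = 0.0343), and in ROS++ it was called lower than in ROS+ without ROS++ replicate 1 (-0.89, adjusted p = 0.0159). C3 passed between ROS+++ and ROS+ with only these classes fitted (1.16, adjusted p = 0.0266). Between ROS+++ and ROS++ the sign of uncalled genes turned when single libraries were left out, with ranges of -1.44 to 0.11 for C1qa, -1.61 to 0.21 for C1qb and -1.49 to 0.038 for C3ar1, positive only without ROS+++ replicate 1, of -0.052 to 0.83 for C3, negative only without ROS++ replicate 4, and of -0.29 to 0.56 for C4b. Relative to macrophage markers, 4 genes were called with the median of the reference list, 0 with the microglia list and 0 with the border macrophage list, 0 to 4 when single libraries were left out (0 without ROS+++ replicate 1), and over all genes 1853 with the microglia list, 7 with the border list and 2127 to 4139 when single libraries were left out, against 2985. C4b (-0.16) turned to 0.11 with the microglia list. With the border list the signs turned for C1qa (1.05), C1qb (0.94), C1qc (0.87), C3ar1 (0.89), C4b (1.90) and C5ar1 (0.53), none called. C3 (0.18) ran from -0.26 to 0.71 and C4b from -0.44 to 0.14 when single libraries were left out. Median-of-ratios factors moved the median of all genes from -0.44 to -0.04 between ROS+++ and ROS+ and from -0.34 to 0.03 between ROS+++ and ROS++. The share of calls that were higher went from 32.5% to 50.7% (43.9% with upper-quartile factors) and from 25.3% to 52.2% (42.4%). With sets of consecutive library numbers as replicate block no call of the 8 genes changed. The residual correlations of same-set libraries ran from -0.02 to 0.23, highest between ROS++ replicate 2 and ROS+++ replicate 1. Libraries of different sets were not compared, so these values cannot show whether the sets mark pairs. The labels name no pairing, and the main fit used none. At 0 to 4 reads per ROS+ library for C5ar1, depth limits the size of its difference.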
